A study of Mus musculus with 14 samples.

Results

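Transcripts of the mitochondrial ribosome were followed in the hippocampal CA3 field of adult Sv129Pas mice, either wild type (WT) or mutant for Dcx, which encodes the microtubule-binding protein doublecortin. The members are all genes whose symbol on the bead array starts with Mrpl or Mrps. There were 76 of them, read by 110 of the 25697 probes. With the brightest probe taken for each gene, and detection (p under 0.05) required on at least 4 of the 14 arrays, 68 members could be measured among 9355 features in all (8671 named genes and 684 probes without a gene name). The symbols assign genes by name, so each member was placed in the large or the small subunit by its known position. Mrps18a and Mrps30 sit in the large subunit despite their names, and Mrps36 is now known as a component of the 2-oxoglutarate dehydrogenase complex and was put in neither. Measured members numbered 43 in the large and 25 in the small subunit.

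The arrays fall into 3 groups. WT CA3 was cut out as a single piece from 5 animals (142, 144, 145, 199 and 206). In the Dcx mutants, called knockouts in the design text and with no further word on the allele, the pyramidal cells of CA3 lie in 2 layers that were dissected separately. The outer layer (SPE, external stratum pyramidale) came from 5 mutants (146, 147, 148, 165 and 166) and the inner layer (SPI, internal stratum pyramidale) from 4 of these (146, 147, 148 and 166). No WT array held a single layer, so genotype and the dissection of layers cannot be told apart when a layer is set against WT. The labels speak of pooled dissected material, and 1 animal number stands in each title, so p-values measure the spread between these preparations. Titles decided the grouping, because a bracketed code in other label fields of the outer samples is that of the inner layer. The design asks how the cells of each mutant layer differ from WT, and the study's title names mitochondria among the affected organelles.

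Mitochondria keep a small genome of their own that encodes core subunits of the respiratory chain. Its messages are translated inside the organelle by a ribosome whose RNAs are mitochondrial but whose proteins are all encoded in the nucleus, made in the cytosol and imported. The large subunit joins amino acids, the small subunit reads the message, and both contain proteins inherited from the bacterial ancestor alongside proteins that exist only in mitochondria. Pyramidal cells depend strongly on respiration, and both subunits have to be supplied together with the rest of the mitochondrial translation machinery.

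Nuclear genes of mitochondrial proteins often carry binding motifs for NRF1, for ETS factors such as GABP, and for YY1 close to their start sites. Promoter windows of 300 bases (250 before and 50 after the transcription start) from RefSeq on GRCm38.p6 were therefore searched on both strands for CGCATGCG (NRF1, its own reverse complement), CCGGAAGT (ETS, reverse complement ACTTCCGG) and AAGATGGCG (YY1, reverse complement CGCCATCTT). The table held 67 windows of 61 measured members. The ETS letters occurred in 12 of these windows (17.9%), the YY1 letters in 8 (11.9%) and the NRF1 letters in 5 (7.46%), and 24 windows (35.8%) held at least 1 of the motifs. The corresponding shares were 3.89%, 1.4%, 1.87% and 6.79% of all 32851 windows in the table, and 7.67%, 2.96%, 3.68% and 13.5% of the 9265 windows of genes measured here. Windows of the large and small subunit held the ETS letters at 18.2% (8 of 44) and 17.4% (4 of 23). Among the windows of cytosolic ribosome genes the ETS share was 14.3%, and among those of complex I, the first enzyme of the respiratory chain, it was 3.12% beside 15.6% for YY1.

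The bases upstream of the start are printed for the 4 genes that were lower in SPI than in WT and held a motif before the start, to show where the letters lie in genes whose level differed. Each is written 5′ to 3′ on the gene's strand up to the base before the start, with the matched motif in capitals. They are RefSeq sequences of build GRCm38.p6. Mrpl9 is shown for the plus strand of chr3:94443256-94443335 (NRF1 at position -27 from the start), Mrpl48 for the minus strand of chr7:100583131-100583210 (ETS, reverse, at -35, in 1 of its 4 windows), Mrpl51 for the plus strand of chr6:125192080-125192199 (ETS at -90) and Mrpl18 for the minus strand of chr17:12916092-12916341 (ETS at -240).
Mrpl9: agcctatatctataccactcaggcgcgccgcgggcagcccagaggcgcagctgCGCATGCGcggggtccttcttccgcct
Mrpl48: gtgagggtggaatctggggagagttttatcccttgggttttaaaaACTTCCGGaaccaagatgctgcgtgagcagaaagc
Mrpl51: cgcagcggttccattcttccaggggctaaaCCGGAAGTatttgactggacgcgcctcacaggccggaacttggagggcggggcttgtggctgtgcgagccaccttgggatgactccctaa
Mrpl18: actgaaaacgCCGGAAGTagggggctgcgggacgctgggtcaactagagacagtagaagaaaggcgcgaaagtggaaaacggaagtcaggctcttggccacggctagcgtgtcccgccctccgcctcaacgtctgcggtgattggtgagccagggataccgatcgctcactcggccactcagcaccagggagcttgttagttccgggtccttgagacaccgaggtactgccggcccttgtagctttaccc
The same ETS letters also stood in windows of members that were not called in SPI against WT, such as Mrpl3, Mrpl27 and Mrps26. They stood as well in that of Mrpl52 (reverse, at position 2 after the start), which was called higher. A match of letters is a description of the sequence, and binding was not measured.

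The arrays differed in brightness. Mean raw signal was 371 to 515 intensity units in WT, 279 to 482 in SPE and 119 to 362 in SPI, and the dimmest arrays were SPI 147 (119), SPI 148 (231) and SPE 148 (279). Probes detected per array numbered 11303 to 11988 in WT, 10123 to 11843 in SPE and 8413 to 11406 in SPI. Dcx itself was read by a dim probe with log2 levels of 5.75 ± 0.23 in WT, 5.33 ± 0.38 in SPE and 5.30 ± 0.45 in SPI (mean ± SD over the group's arrays), and it was not called in either layer against WT. Whether this probe lies in the part of the gene that the mutation removes is not given in the labels, so it does not check them. Levels throughout are log2 of background-corrected, quantile-normalised signal, differences are log2 differences with the standard error (SE) of a limma fit over all 9355 features, and a gene is called when its p, adjusted by Benjamini-Hochberg across all features, was under 0.05. A level belongs to its probe and is not comparable between genes.

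Transcripts of the mitochondrial ribosome were readily detected in CA3: 63 of the 68 measured members were detected on all 14 arrays. Mrpl18, Mrpl35, Mrpl51 and Mrps15 were missed only on SPI 147, the dimmest array. Mrps27 was the measured member nearest to the detection limit, seen on 9 arrays and missed on SPE 147, SPE 148, SPI 146, SPI 147 and SPI 166. Of the 8 members not measured, Mrpl15 and Mrpl45 were detected on 2 arrays, Mrpl39 on 1, and Mrpl19, Mrpl21, Mrpl32, Mrps14 and Mrps36 on none. The 76 members on the array lie on 17 chromosomes. Of the 68 measured, 41 belong to families shared with bacteria and 27 are specific to mitochondria.

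In the inner layer most mitochondrial ribosome transcripts were not called against WT in the reported fit. The share called lay below that of all features there but not in every setting, and the difference in shares was not tested. Against WT, 4 members were called higher and 9 lower in SPI (19.1% of 68), beside 24.5% of all features called, 13.6% higher and 10.9% lower. With no detection filter 5 of 76 members were higher and 8 lower, beside 11.1% of all features called. With each gene's probes averaged 3 of 68 were higher and 15 lower, beside 25%. The median log2 difference was 0.057 over the members and 0.035 over all features, while the mean over the members was -0.055. For 43 of the 68 members the difference was smaller than 0.25 on the log2 scale, as it was for 49.1% of all features, and for 65 it was smaller than 1 (94.6% of all features). Arrays of the groups did not overlap for 3 members that were higher in SPI (Mrps6, Mrps34 and Mrpl17, the last not called) and 7 that were lower, beside 12.6% of all features higher and 8.9% lower (21.5% together). An unadjusted limma p under 0.05 was reached by 21 of the 68 members and by 3546 of all 9355 features.

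The scaling of the arrays mattered for the split between higher and lower. It was 4 to 9 as reported, 8 to 10 both without background correction and with the deposited normalised values, and 2 to 8 when arrays were scaled to the median of detected probes. In the same order, 24.5%, 26.3%, 26.2% and 34.1% of all features were called. Scaling to the median of detected probes moved the median difference of all features to 0.177 and that of the members to -0.074. Scaling to the median of all probes, most of them undetected, moved these medians to -0.854 and -1.11 and gave 0 higher and 44 lower. That setting called 43% of all features, 16 higher and 4003 lower.

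**Figure D1:**
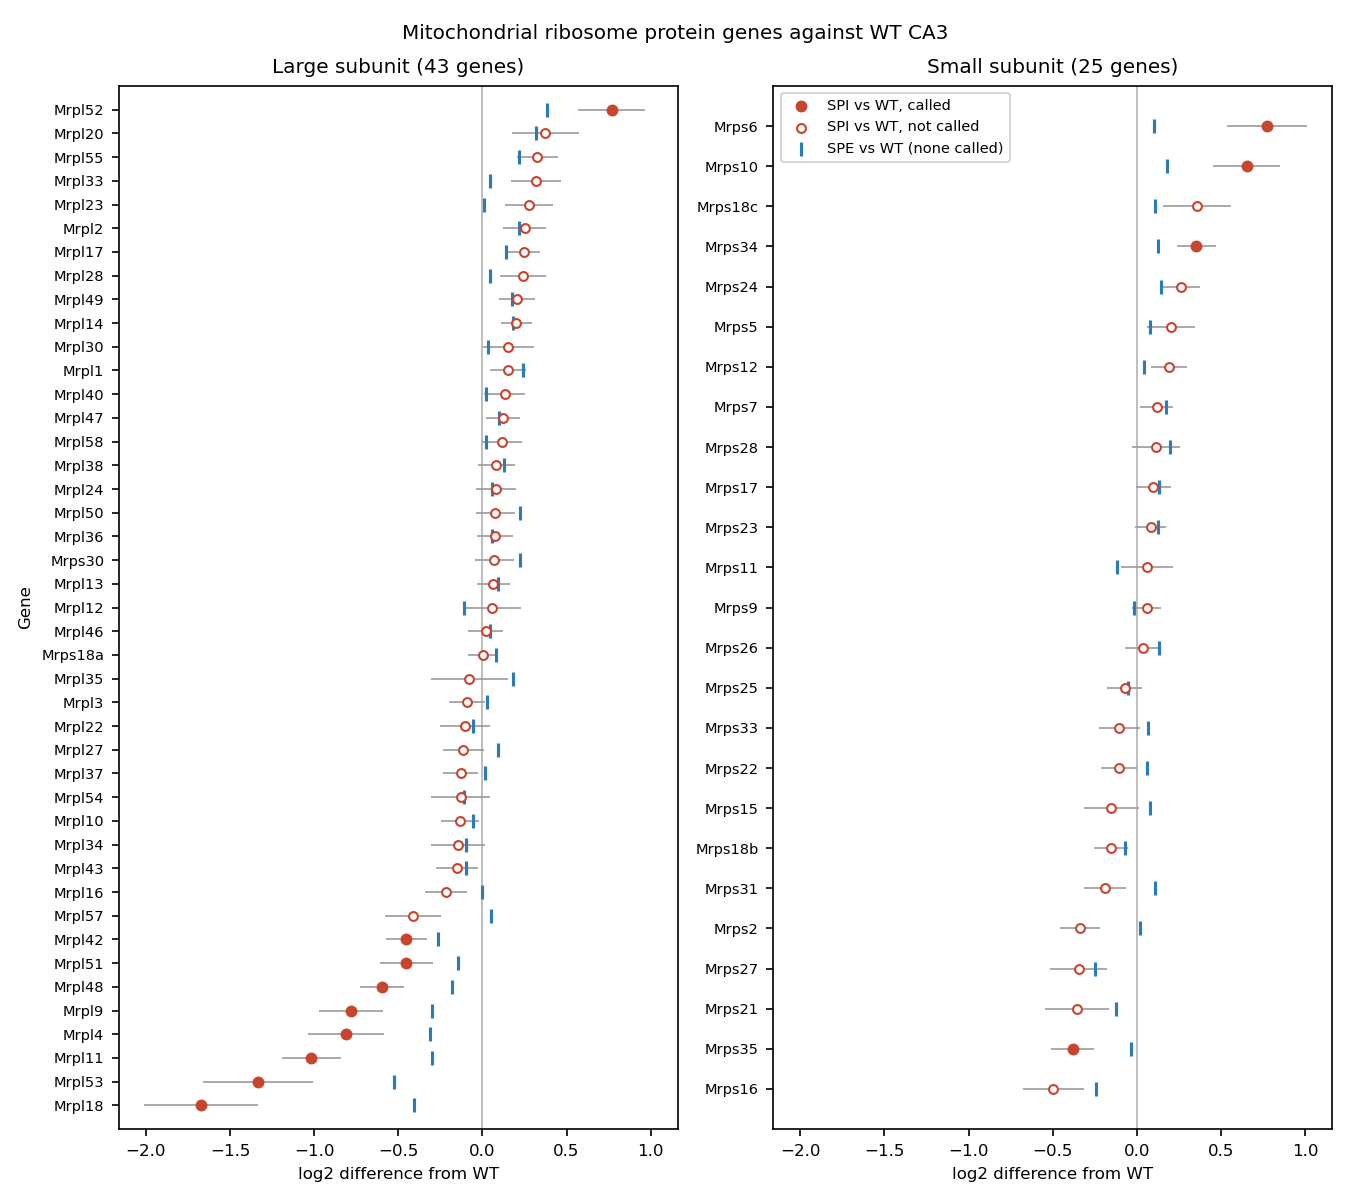
Log2 difference from WT for each measured member, in the large subunit (left, 43 genes) and the small subunit (right, 25 genes), with genes ordered by SPI vs WT. Circles are SPI vs WT with SE bars, filled where called, and blue ticks are SPE vs WT. The filled circles of the large subunit lie mostly below 0 (8 lower, 1 higher), those of the small subunit mostly above (1 lower, 3 higher). Of all features 13.6% were called higher and 10.9% lower. The 3 higher small-subunit members and Mrpl52 turn negative when arrays are scaled to the median of all probes. Mrpl51 turns positive when they are scaled to the median of detected probes.

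The subunits had nearly the same median difference from WT in SPI with the brightest probe of each gene, but 0.026 (large) and -0.11 (small) with each gene's probes averaged, a gap of 0.134. In the large subunit 1 member was higher and 8 were lower of 43 (20.9%), with a median of 0.055 and a mean of -0.10. In the small subunit 3 were higher and 1 was lower of 25 (16%), with a median of 0.058 and a mean of 0.026. Both shares lay below the 24.5% of all features called (13.6% higher and 10.9% lower). No difference between these shares was tested. With the brightest probes the large-minus-small difference of the medians was -0.0034. Taken array by array, the same balance ranged from -0.029 to 0.041 in WT and from -0.078 to 0.024 in SPE. It was 0.11 on SPI 146, -0.11 on SPI 147, -0.024 on SPI 148 and -0.039 on SPI 166, which overlaps the other groups and is spread about 0. As mean ± SD over arrays, the balance of WT was 0.00094 ± 0.029, that of SPE -0.011 ± 0.040 and that of SPI -0.017 ± 0.092.

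**Figure D2:**
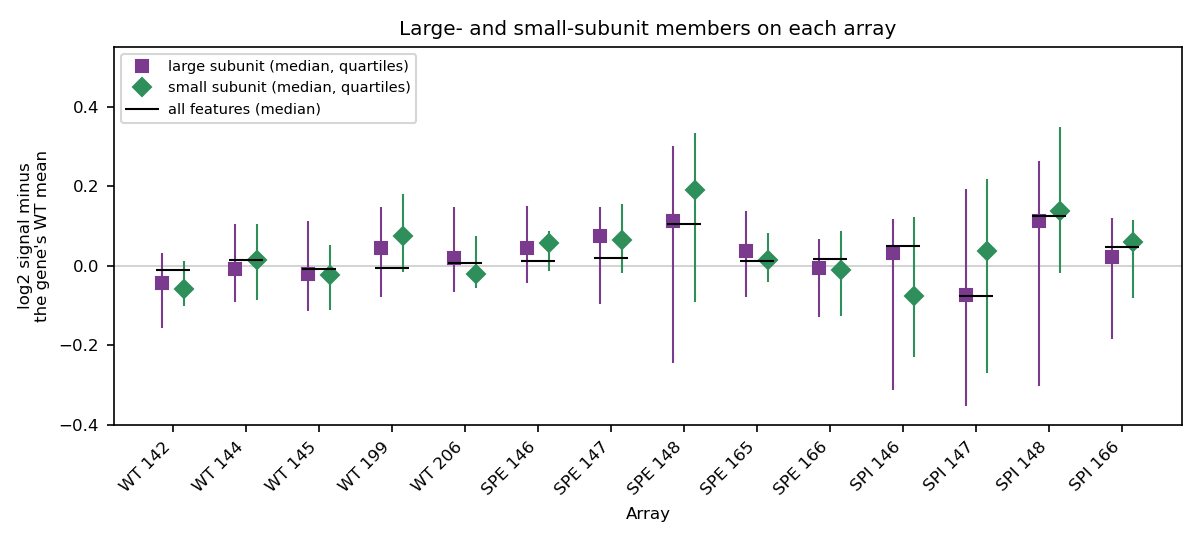
Median log2 signal relative to each gene's WT mean, for large-subunit members (squares) and small-subunit members (diamonds) on each of the 14 arrays, with bars from the lower to the upper quartile and a black line for the median of all features. Medians of both subunits stay within 0.2 of 0 on every array, and the quartile bars of both subunits are longer on SPE 148, SPI 146, SPI 147 and SPI 148 than on the other 10 arrays.

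Grouped by ancestry, 2 members of bacterial families were higher and 4 lower of 41 (14.6%, median difference 0.081). Of the 27 mitochondria-specific members 2 were higher and 5 lower (25.9%, median -0.10). Beside these, 24.5% of all features were called, 13.6% higher and 10.9% lower, and the difference by ancestry was not tested. The SPI arrays also varied more among themselves. The SD in SPI was above the WT value in 47 of 68 members, against 81.0% of all features. The median SD over members was 0.159 in WT, 0.140 in SPE and 0.207 in SPI. Over all features it was 0.173, 0.198 and 0.314 in the same order, so the rise in SPI was smaller over members than over all features.

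Among the bacterial-family proteins of the large subunit, Mrpl11, which forms the base of the stalk where elongation factors bind, was about 2-fold lower in the inner layer. Its log2 levels were 9.08, 9.62, 9.42, 9.54 and 9.94 in WT, 9.32, 9.06, 9.11, 9.44 and 9.16 in SPE and 8.50, 8.05, 8.52 and 8.86 in SPI, each group in rising order of its animal numbers. All 4 SPI arrays lay below every WT and every SPE array. The difference from WT was -1.02 ± 0.18 (2.02-fold lower, limma adjusted p = 0.00132). Leaving out each array in turn kept the call, with differences from -1.14 to -0.88.

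Mrpl18, a protein of the central protuberance, showed the largest fall among the members. Its log2 levels in the same order were 7.73, 7.58, 7.55, 7.55 and 7.61 in WT, 7.76, 7.19, 6.30, 7.46 and 7.25 in SPE and 6.62, 5.10, 5.03 and 6.88 in SPI. The SPI arrays lay below all WT arrays, the dim arrays SPI 147 (where the probe was not detected) and SPI 148 lay lowest, and SPE 148, the dimmest outer array, fell within the SPI range. The difference from WT was -1.67 ± 0.34 (3.19-fold lower, adjusted p = 0.00345). Without the 3 dimmest arrays it was -0.86 (adjusted p = 0.00166).

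Mrpl4, which lines the tunnel through which the new chain leaves, had log2 levels of 8.50, 7.88, 8.33, 8.70 and 8.19 in WT, 8.27, 8.20, 7.23, 8.15 and 8.18 in SPE and 7.53, 7.74, 6.82 and 7.90 in SPI. The highest SPI array (166) reached just above the lowest WT array (144), so the groups overlapped. The difference of -0.81 ± 0.23 (1.75-fold lower) had an adjusted p of 0.0193, which became 0.0803 without SPI 148 (difference -0.61).

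Mrpl9, which carries the NRF1 letters printed above, had log2 levels of 7.63, 7.52, 7.98, 7.82 and 7.40 in WT, 7.58, 7.74, 6.80, 7.41 and 7.34 in SPE and 7.06, 7.38, 6.41 and 6.71 in SPI. Here SPI 147 came close to the lowest WT array but all SPI arrays were lower than WT. The difference was -0.78 ± 0.19 (1.72-fold lower, adjusted p = 0.00974), and its call was kept in all 28 other settings in which it was tested, including a covariate for each array's mean signal (difference -0.87, adjusted p = 0.0492).

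The mitochondria-specific proteins of the large subunit gave the other falls. Mrpl53 had log2 levels of 10.24, 10.35, 10.18, 10.90 and 10.79 in WT, 10.13, 10.01, 9.54, 10.19 and 9.97 in SPE and 9.34, 7.87, 9.47 and 9.89 in SPI. All SPI arrays lay below WT, and SPI 147 stood more than 1 log2 unit below the others. The difference of -1.33 ± 0.33 (2.52-fold lower, adjusted p = 0.0102) shrank to -0.88 without that array, with an adjusted p of 0.00658.

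Mrpl48, of the central protuberance, had log2 levels of 9.13, 8.89, 9.08, 9.18 and 9.03 in WT, 9.02, 8.96, 8.48, 8.98 and 8.97 in SPE and 8.58, 8.34, 8.16 and 8.73 in SPI. The SPI arrays were again below every WT array, and SPE 148 was the only outer array inside their range. The difference was -0.60 ± 0.13 (1.51-fold lower, adjusted p = 0.00564). It is the called member with the broadest probe support, since both of its further probes also passed, with differences of -0.81 and -0.76 (adjusted p = 0.0123 and 0.00718 over the 12140 probes past the detection rule).

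Mrpl42 had log2 levels of 9.78, 9.91, 9.67, 9.74 and 10.10 in WT, 9.69, 9.53, 9.50, 9.70 and 9.48 in SPE and 9.32, 9.16, 9.48 and 9.56 in SPI. The SPI arrays lay below WT by a small step, and the difference was -0.45 ± 0.12 (1.37-fold lower, adjusted p = 0.0154). Mrpl51, a dim probe, was lower by about the same amount (-0.45 ± 0.16, adjusted p = 0.0481), but this difference turned to 0.014 under median scaling of detected probes and to 0.026 as a mean of its probes. Its levels were 6.07, 5.97, 6.31, 5.86 and 5.75 in WT, 5.61, 5.95, 5.54, 6.19 and 5.95 in SPE and 5.64, 5.27, 5.59 and 5.54 in SPI. The call of Mrpl51 was lost without any one of 8 arrays (every WT array except 206, SPE 147, SPE 166, SPI 147 or SPI 166), with differences of -0.49 to -0.33 and adjusted p from 0.057 to 0.136.

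Mrpl52 was the only large-subunit member called higher in SPI, and it too is specific to mitochondria. Its log2 levels were 8.19, 8.32, 7.89, 8.57 and 7.97 in WT, 8.46, 8.37, 9.09, 8.58 and 8.37 in SPE and 8.77, 8.99, 9.58 and 8.48 in SPI. SPI 166 lay below the highest WT array, the other 3 SPI arrays above all of WT. The difference was 0.77 ± 0.20 (1.70-fold higher, adjusted p = 0.0131), turned to -0.46 when arrays were scaled to the median of all probes, and lost its call without SPI 148 (0.57, adjusted p = 0.0543).

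In the small subunit, 3 members were higher in SPI than in WT, and all 3 turned lower with scaling to the median of all probes. Mrps6, of a bacterial family, had log2 levels of 8.01, 7.86, 7.68, 8.25 and 7.93 in WT, 7.95, 8.08, 8.61, 7.88 and 7.72 in SPE and 8.31, 9.56, 8.79 and 8.26 in SPI. The SPI arrays lay above WT, but SPI 166 and WT 199 were almost equal and SPI 147 stood far above the rest. The difference was 0.77 ± 0.24 (1.71-fold higher, adjusted p = 0.0295). It was 0.49 without SPI 147 (adjusted p = 0.0492), -0.49 with the all-probe scaling, and not called without WT 144, WT 145, WT 206 or SPI 148 (differences of 0.70 to 0.77, adjusted p from 0.0537 to 0.0699).

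Mrps10, also of a bacterial family, had log2 levels of 8.21, 8.55, 8.82, 8.61 and 8.49 in WT, 8.61, 8.72, 9.21, 8.33 and 8.69 in SPE and 9.04, 9.75, 9.30 and 8.79 in SPI. SPI 166 fell just under WT 145, so the groups touched. The difference was 0.65 ± 0.20 (1.57-fold higher, adjusted p = 0.028), -0.58 with the all-probe scaling, and not called without WT 142, WT 206, SPI 147 or SPI 148 (0.45 to 0.66, adjusted p from 0.0508 to 0.0696). The second probe of Mrps10 gave the opposite sign, with a difference of -0.54 ± 0.19 that also passed (adjusted p = 0.0495 over probes), so the direction of this gene depends on the probe.

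Mrps34, a mitochondria-specific protein, had log2 levels of 11.67, 11.34, 11.62, 11.67 and 11.43 in WT, 11.74, 11.75, 11.82, 11.42 and 11.63 in SPE and 11.85, 12.12, 11.90 and 11.81 in SPI. Every SPI array exceeded every WT array, and SPI overlapped SPE at its lower edge. The difference was small, 0.35 ± 0.12 (1.28-fold higher, adjusted p = 0.0374), and -0.71 with the all-probe scaling. Its call was lost on leaving out WT 144, WT 145, WT 206, SPE 147, SPE 166 or any SPI array except 166 (0.28 to 0.38, adjusted p from 0.0504 to 0.0891).

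Mrps35 was the 1 small-subunit member called lower in SPI, and it is also mitochondria-specific. Its log2 levels were 7.97, 8.39, 8.12, 8.24 and 8.24 in WT, 8.18, 8.16, 7.93, 8.21 and 8.29 in SPE and 8.02, 8.00, 7.45 and 7.75 in SPI. The highest 2 SPI arrays lay above WT 142, so the groups overlapped. The difference of -0.38 ± 0.13 (1.30-fold lower, adjusted p = 0.0423) was not called without WT 144, 145, 199 or 206, any SPE array other than 148, SPI 148 or SPI 166 (-0.40 to -0.27, adjusted p from 0.051 to 0.132).

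**Figure D3:**
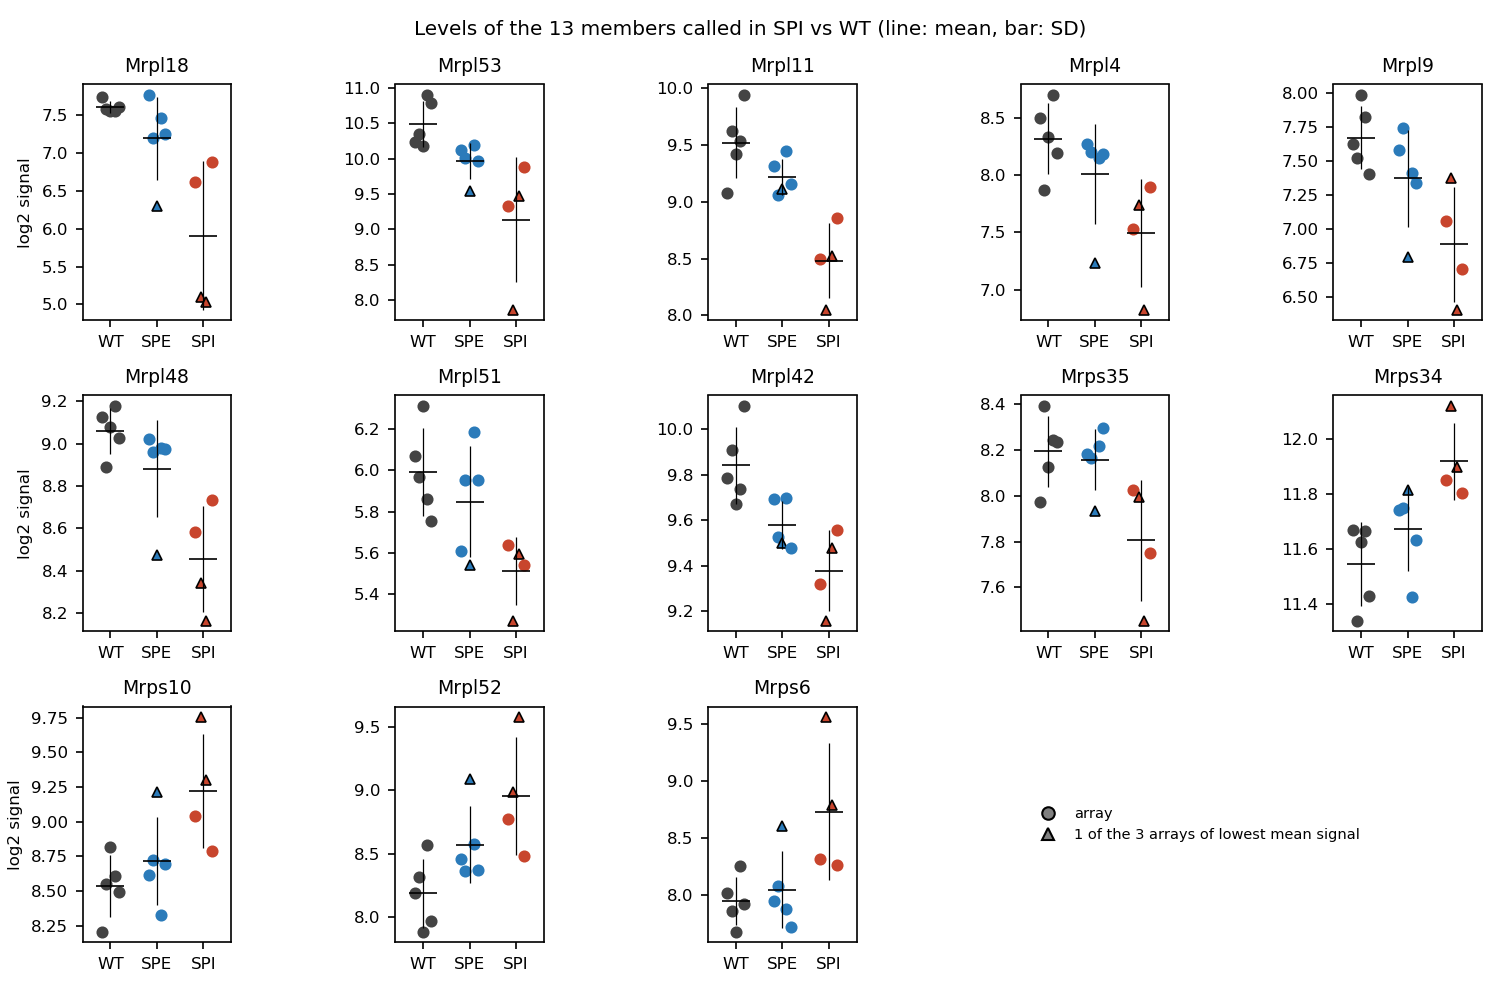
Log2 signal on each array for the 13 members called in SPI vs WT, with group mean (line) and SD (bar), and triangles for the 3 arrays of lowest mean signal (SPI 147, SPI 148, SPE 148). Among the SPI arrays a triangle is the most extreme point in every panel, and among the SPE arrays the triangle is most extreme in the direction of SPI in 11 of 13, beside 88% and 77.9% of all called features. Mrpl52, Mrps6, Mrps10 and Mrps34 change sign with scaling to the median of all probes and Mrpl51 with scaling to the median of detected probes.

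Within SPI and within SPE, the array farthest in the direction of the SPI difference was mostly a dim one, among called members as among all called features. For all 13 called members the most extreme SPI array was one of the 2 dimmest ones (SPI 147 for 7, SPI 148 for 6), as for 88% of the 2289 features called, and SPE 148 was the SPE array nearest to the SPI side for 11 of 13, as for 77.9% of those features. Without the 3 dimmest arrays limma called 0 members higher and 8 lower, with 7 of the original 13 kept (Mrpl4, Mrpl9, Mrpl11, Mrpl18, Mrpl42, Mrpl48 and Mrpl53) and Mrps27 added, while the share of all features called went from 24.5% to 19.7%. With each array's mean signal as a covariate only Mrpl9 of the members was called, beside 5.38% of all features, and Mrpl11 had a difference of -0.77 with an adjusted p of 0.0501. The part of signal strength in the differences was not tested beyond these settings.

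Markers of other cells also differed between the groups, and in bulk tissue fewer cells of a type and less RNA per cell cannot be told apart. Interneuron markers had mean log2 levels of 8.52 to 8.83 per array in WT, 8.39 to 8.90 in SPE and 9.69 to 10.18 in SPI, with 8 of 9 measured genes higher in SPI and Cck lower. Oligodendrocyte and myelin markers ran from 8.09 to 8.48, 8.24 to 8.47 and 9.05 to 9.94 (7 of 8 higher), and astrocyte markers from 8.11 to 8.20, 8.11 to 8.39 and 8.84 to 9.33 (6 of 8 higher). Both non-neuronal lists were thus higher on every SPI array than on any WT or SPE array. Microglia markers ran from 5.58 to 5.80, 5.74 to 5.97 and 6.40 to 6.77 (6 of 8 higher). Endothelial and mural markers ran from 5.44 to 5.77, 5.41 to 5.80 and 5.92 to 6.69 (2 of 7 higher, 28.6%). Beside these counts, 24.5% of all features were called in SPI against WT, 13.6% higher and 10.9% lower. The pyramidal neuron list, in which Rbfox3 is shared with other neurons, had similar mean levels across the groups. They were 10.00 to 10.21 in WT, 9.81 to 10.09 in SPE and 9.81 to 10.10 in SPI. Its genes moved both ways in SPI against WT (-0.57 to 0.43), with Camk2a higher and Slc17a7 and Rbfox3 lower among 6. The mean therefore does not measure the share of pyramidal cells. Listed markers that did not pass the detection rule or have no probe included Gad2, Olig2, Sox10, P2ry12, Cldn5 and Prox1. The part of these cell types in the differences of mitochondrial ribosome genes was not tested.

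In the outer layer no member of the mitochondrial ribosome was called against the same WT arrays. The count was 0 of 68, beside 0% of all features, with limma's smallest adjusted p at 0.904 for members and features alike. An unadjusted p under 0.05 was reached by 2 of the 68 members and by 358 of all 9355 features. Differences ran from -0.52 (Mrpl53) to 0.38 (Mrpl52), with a median of 0.048 against 0.036 for all features, and 60 of 68 were smaller than 0.25 (84.4% of all features). The 6 members with the smallest p were Mrpl1 (0.24 ± 0.10), Mrpl42 (-0.26 ± 0.11), Mrpl14 (0.18 ± 0.09), Mrps30 (0.22 ± 0.11), Mrpl52 (0.38 ± 0.19) and Mrpl50 (0.22 ± 0.11). Arrays of SPE and WT did not overlap for 2 members, Mrpl14 and Mrpl49, both higher in SPE, and 0.855% of all features separated in that direction (1.62% in either).

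Mrpl14 may serve as an example of a small shift. Its log2 levels (mean ± SD over arrays) were 9.77 ± 0.09 for WT, 9.95 ± 0.06 for SPE and 9.98 ± 0.07 for SPI. Neither layer's difference from WT was called (adjusted p = 0.904 for SPE and 0.115 for SPI). With scaling to the median of all probes the SPE difference was -0.0032. The SPE and SPI comparisons share their WT arrays, so similar signs in both are not independent.

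The layers of the mutants were also compared with each other. Of the outer arrays 4 have an inner array of the same animal and SPE 165 has none, and the WT arrays enter through the shared estimate of the spread. With only the arrays of the layers in the fit, limma called 0 members higher and 3 lower, beside 12.6% of all features called. Against SPE, 1 member was higher and 7 were lower in SPI (11.8%), beside 20.5% of all features called, 10.8% higher and 9.65% lower. The lower genes were Mrpl11 (-0.72 ± 0.15, adjusted p = 0.00399), Mrpl18 (-1.26 ± 0.28, 0.00659), Mrpl48 (-0.42 ± 0.11, 0.0163), Mrps2 (-0.36 ± 0.10, 0.0226), Mrpl57 (-0.46 ± 0.14, 0.0324), Mrps35 (-0.35 ± 0.11, 0.0354) and Mrpl9 (-0.48 ± 0.16, 0.0452). The higher one was Mrps6 (0.67 ± 0.20, 0.0288), with -0.36 under scaling to the median of all probes. All 8 had the same sign in 4 of 4 animals, but these are the arrays that gave the calls, so this is no separate support. Members that were not called, such as Mrpl37, Mrps33, Mrpl23 and Mrpl33, also had 1 sign in all 4 animals. Arrays of the layers did not overlap for 4 members, all lower in SPI (Mrpl11, Mrps2, Mrpl57 and Mrps31, the last not called), beside 9.99% of all features, 6.22% higher and 3.77% lower. In the large subunit 0 were higher and 5 lower, and in the small subunit 1 was higher and 2 were lower.

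Within animals the inner layer was lower in Mrpl11 by different amounts: the SPI minus SPE difference of log2 levels was -0.82 in animal 146, -1.01 in 147, -0.59 in 148 and -0.30 in 166. For Mrpl18 it was -1.14, -2.09, -1.27 and -0.37 in the same order. Animal 166 had the smallest step in both genes. For Mrpl9 the order differed, with -0.52, -0.36, -0.39 and -0.63, so that animal 166 had the largest step.

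Mrps2, a bacterial-family protein of the small subunit, was lower in SPI than in SPE, with WT and SPE at like levels. Its log2 levels were 7.23, 7.43, 7.47, 7.13 and 7.41 in WT, 7.42, 7.27, 7.24, 7.46 and 7.36 in SPE and 6.70, 7.08, 7.01 and 7.16 in SPI. The SPI arrays lay below every SPE array but SPI 166 reached into WT, and the difference from WT of -0.34 ± 0.12 was not called (adjusted p = 0.0504). Mrpl57, mitochondria-specific and of the large subunit, had levels of 6.24, 6.65, 6.68, 5.90 and 6.52 in WT, 6.38, 6.54, 6.20, 6.68 and 6.44 in SPE and 5.95, 5.67, 6.12 and 6.11 in SPI. Again SPI lay below SPE and overlapped WT.

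These layer differences rested on few arrays. Mrpl11 kept its call when any 1 array was left out. Mrpl18 (-1.01, adjusted p = 0.0759) and Mrpl48 (-0.33, 0.129) lost it without SPI 148 alone. The call of Mrps2 was lost without SPE 146, SPI 146 or SPI 148 (-0.37 to -0.25, adjusted p from 0.0697 to 0.0804), and that of Mrpl57 without any of 7 arrays, all SPI but 166 and all SPE but 148 (-0.54 to -0.335, 0.0532 to 0.075). Mrps35 lost it without SPE 146, 165 or 166 or SPI 148 or 166 (-0.36 to -0.24, 0.0568 to 0.212), and Mrps6 without any SPE array but 148 or without SPI 148 (0.54 to 0.68, 0.052 to 0.111). For Mrps6 the difference was 0.39 without SPI 147. Mrpl9 lost it without any of 9 arrays, WT 142, 144 and 199, SPE 146, 165 and 166, and SPI 146, 148 and 166 (-0.51 to -0.34, 0.0533 to 0.287).

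Without SPI 148, only 1 member was called lower and limma called 0 higher, beside 10.2% of all features called. Without the block for the animal only Mrpl11 and Mrpl18 were called, beside 11.4% of all features. With a fixed block for the 4 animals that gave both layers no member was called by limma, beside 3.81% of all features. Calls thus became fewer over the whole array in these settings. The median SPI minus SPE difference over members was -0.054 in animal 146, -0.10 in 147, -0.031 in 148 and 0.018 in 166, where that over all features was 0.022, -0.096, -0.0058 and 0.024.

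Members with a special place in the ribosome were among those not called. The 3 paralogs of Mrps18 differ in position: Mrps18a is in the large subunit, and Mrps18b and Mrps18c are small-subunit proteins. Their SPI differences from WT were 0.0010 ± 0.086, -0.15 ± 0.10 and 0.36 ± 0.20, none called (adjusted p = 0.996, 0.275 and 0.214). Mrps30 (0.07 ± 0.12) and Mrpl12 (0.055 ± 0.17), the stalk protein that also binds the mitochondrial RNA polymerase, were not called either (adjusted p = 0.688 and 0.844). On SPI 147 Mrpl12 reached 11.37, while the other SPI arrays lay between 10.47 and 10.62.

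The choice of the brightest probe mattered for members with several. Of the members, 18 had 24 further probes past the detection rule, of which 12 had the sign of the brightest probe in SPI against WT and 12 the opposite sign. The median difference was -0.083 for the brightest and -0.55 for the further probes of these genes. Tested over all 12140 probes, 14 of the 24 further probes were called lower and 0 higher, beside 26.1% of all probes called and 14.6% called lower, while the brightest probes of the same genes gave 1 higher and 2 lower. Over all 2085 genes with further probes the medians were 0.018 for the brightest and -0.23 for the 2785 further probes, and 59.2% had the same sign. Of these 2785 further probes 761 were called lower and 136 higher, so further probes were mostly on the lower side across the array too.

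The widest gaps were in genes whose brightest probe was not called. For Mrps5 the brightest probe gave 0.20 ± 0.14 and the further one -1.72 ± 0.29 (adjusted p = 0.0012 over probes). For Mrpl3 the values were -0.093 ± 0.11 and -1.64 ± 0.27 (0.00101), and for Mrps18b -0.15 ± 0.10 and -1.58 ± 0.35 (0.00515). These further probes were dim, with mean log2 levels of 6.44, 5.96 and 6.05, and were detected on 12 of the 14 arrays. The probes' positions in the transcripts were not used here, and the part of transcript variants in these gaps was not tested.

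**Figure D4:**
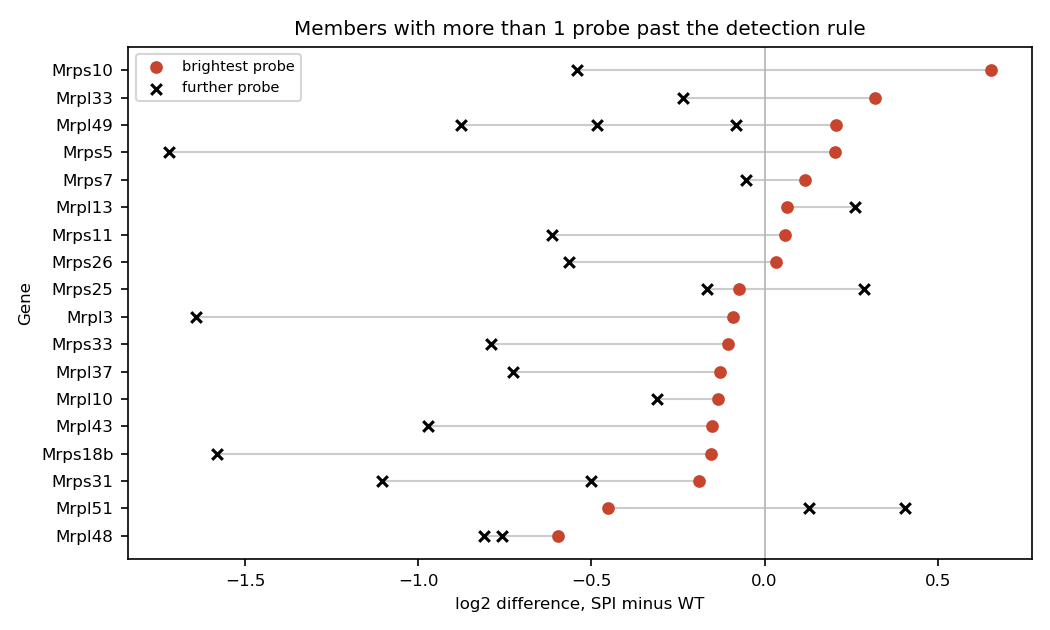
Log2 difference between SPI and WT for the 18 members with more than 1 probe past the detection rule, with circles for the brightest probe and crosses for each further probe. In 15 genes every cross lies to the left of the circle, by up to 1.92 log2 units for Mrps5, whereas both crosses of Mrpl51 and the cross of Mrpl13 lie to the right and those of Mrps25 on both sides.

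Other genes of mitochondrial gene expression were read in the inner layer against WT, where 24.5% of all features were called. The share called was 0% to 18.8% in each of 6 lists, which hold between 3 and 21 measured genes, and no difference from the share of all features was tested. Mitochondrial ribosome proteins under other symbols gave 0 calls among 3 measured of 7 listed: Chchd1 (0.25 ± 0.095, adjusted p = 0.0647), Ptcd3 and the GTP-binding protein Dap3, with a median of 0.16. Of 14 measured translation factors 0 were higher and 1 was lower (median -0.0082), namely Mtfmt, which formylates the initiator tRNA (-0.51 ± 0.18, adjusted p = 0.0487, and 0.43 with scaling to the median of detected probes). The elongation factors Tsfm and Gfm1 had differences of -0.43 and -0.60 that were not called. Among 16 aminoacyl-tRNA synthetases, which charge the tRNAs, Vars2 (0.52 ± 0.13, adjusted p = 0.0119) and Fars2 (0.32 ± 0.099, 0.0321) were higher, though both turned lower (-0.64 and -0.88) with arrays scaled to the median of all probes, and Iars2 (-0.88 ± 0.26, 0.0262) was lower.

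Of 21 genes for the assembly of the ribosome and modification of its RNA, 3 were higher and 0 lower (median 0.025), and all 3 turned lower (-0.87 to -0.77) with the all-probe scaling. They were Mterf4 (0.42 ± 0.12, adjusted p = 0.0226), which guides an RNA methyltransferase to the large subunit, the GTPase Noa1 (0.34 ± 0.10, 0.0264) and the helicase Dhx30 (0.33 ± 0.11, 0.0417). Among 15 genes of mitochondrial transcription and RNA processing none was called, with Tfam, which packages the mitochondrial genome, at -0.35. Among 7 measured regulators of nuclear mitochondrial genes, Esrra, a nuclear receptor active on such genes, was higher in SPI than in WT (0.77 ± 0.13, adjusted p = 0.00133) and than in SPE (0.59 ± 0.11, adjusted p = 0.00258), but had -0.41 against WT with the all-probe scaling. Nrf1, whose motif was searched above, had a difference of 0.41 ± 0.16 that was not called (adjusted p = 0.0763). In SPE against WT limma called 0 genes of these lists.

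The 8 called genes of these lists held up unequally when the processing was varied. Esrra kept its call in 26 of 28 other settings, Vars2 in 25, Mterf4 in 22, Noa1 and Fars2 in 19 and Dhx30 in 12, while Iars2 kept it in 22 of 27 and Mtfmt in 5 of 27. With each array's mean signal as a covariate all 8 lost their calls, with differences of 0.61 for Esrra, 0.34 for Vars2 and -0.85 for Iars2. As a mean of its probes Mterf4 turned to -0.50. No array was needed singly for the calls of Esrra and Vars2. Mterf4 lost its call without SPI 148 (0.33), Iars2 without WT 142 (-0.83) or WT 145 (-0.85), Fars2 without WT 142, WT 144, WT 206 or SPI 148 (0.25 to 0.32), and Noa1 without WT 142, WT 145, SPI 146 or SPI 148 (0.30 to 0.34). Dhx30 lost it without any array except WT 144, SPE 148 and SPI 166 (0.28 to 0.34), and Mtfmt without any array except WT 144, SPE 147 and SPE 148 (-0.56 to -0.43).

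For orientation, the ribosome of the cytosol gave 18 higher and 4 lower of 55 in SPI against WT (40%) with a median of 0.18, and complex I gave 3 higher and 5 lower of 33 (24.2%) with a median of -0.059, beside 24.5% of all features called. Against SPE the counts were 17 and 0 for the cytosolic ribosome (30.9%) and 3 and 2 for complex I (15.2%), beside 20.5% of all features. These differences between gene groups were not tested.

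**Figure D5:**
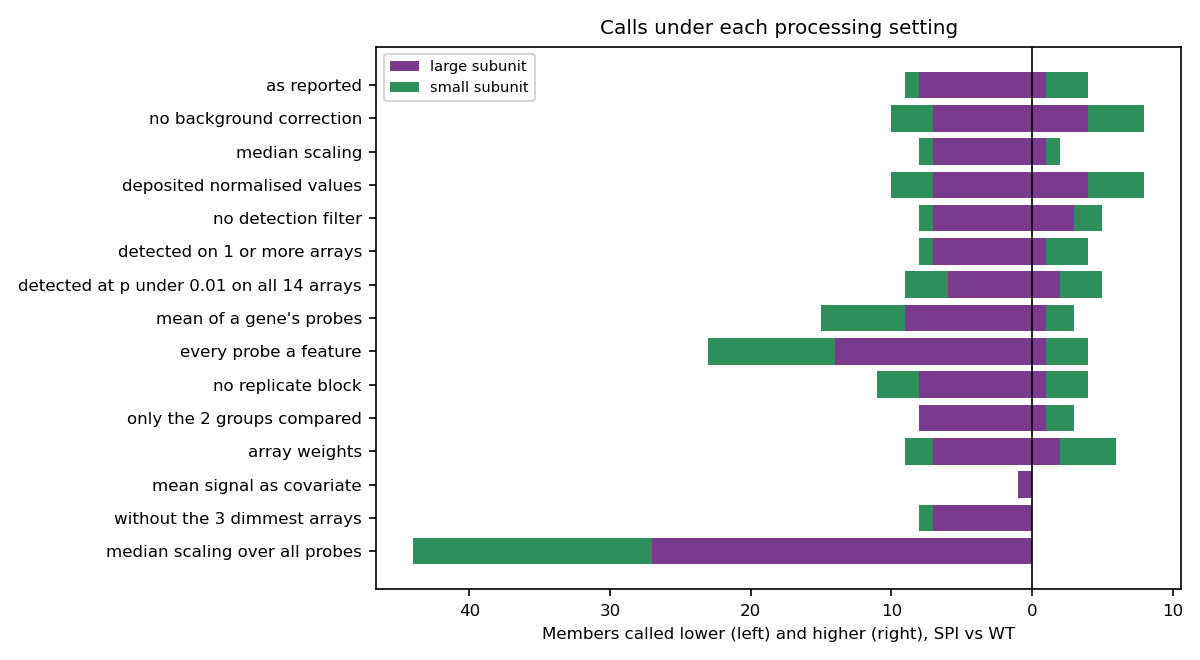
Number of mitochondrial ribosome genes called lower (left of 0) and higher (right of 0) in SPI vs WT under each processing setting, divided by subunit. The bars read 9 and 4 as reported, 1 and 0 with mean signal as a covariate, 8 and 0 without the 3 dimmest arrays, 23 and 4 with every probe as a feature and 44 and 0 with scaling to the median of all probes, a setting chosen after the data were seen. In the same order, 24.5%, 5.38%, 19.7%, 26.1% and 43% of all features were called.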

How the data were processed

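RNA from CA3 tissue of 5 WT and 5 Dcx mutant mice was measured on 14 Illumina bead arrays, after amplification to biotin-labelled cRNA per the labels' protocols. The authors deposited bead signal as an intensity on a linear scale with a detection p-value for each probe and array. Per the submitters' processing notes the software was BeadStudio (no version named), and how it treated background was not given in the sources used here. Deposited intensity was nowhere below 71.3, and each array's minimum was at most 88.6. A second deposited table of normalised intensity kept the order of probes within arrays, with medians of 104.1 to 104.4, and served as an alternative.

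Background was corrected with limma's neqc (version 3.58.1 in R 4.3.3, offset 16), which here estimated the negative controls through detection p-values, and signals were then quantile-normalised and taken to log2. A probe had to be detected (p under 0.05) on 4 or more arrays, which 12140 did. Each gene was read by its brightest such probe, giving 9355 features. The platform annotation gave 1 symbol to 23978 probes, several to 0 and none to 1719, and 23962 matched RefSeq (GRCm38.p6) by Entrez identifier.

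A single limma model of the 3 groups held every array, with animals as a random effect (correlation 0.319; degrees of freedom 11 residual, 4.11 prior). Animal numbers in the titles give the pairing. Deviations from the group mean correlated at 0.131, 0.262, 0.266 and 0.626 between the layers of animals 147, 146, 166 and 148, where the highest value with another animal's outer layer was 0.084, 0.254, 0.314 and -0.250. The value within animal 166 was thus below that with another animal, and that within 146 was close to it. Both layers of animal 148 are among the 3 dimmest arrays, so shared animal and shared dimness cannot be told apart there. Tests were two-sided with Benjamini-Hochberg adjustment over all features. Only the limma fit was tried on simulated data, with the same spread for a gene in every group. Background correction, scaling, detection and probe choice were not simulated, and the number of arrays limits the precision.

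Members and lists were chosen with earlier results of these data known. Genes named are those called in any comparison, the 6 of smallest p in each, the Mrps18 paralogs, Mrps30, Mrps36 and Mrpl12, members beside the detection limit, and up to 3 of smallest p from each pathway list. Outside this rule, chosen after their values were seen, are Mrpl17, Mrpl49, Mrps31, Mrps5, Mrpl3, and other genes given as examples. Longer letters for the NRF1 and YY1 motifs were searched before the shorter ones reported. Alternatives covered background, scaling, detection, probe choice, the animal block, groups fitted, array weights, array signal and arrays left out.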

Additional observations from a re-analysis of the deposited data

Results flagged for a closer look

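Levels of 23 named mitochondrial ribosome genes were searched in 69 groups of 4 or 5 arrays for an array whose gap to its nearest neighbour took up most of the group's range. Chance alone would mark about 1 group in 20, and 3 of the 69 were found, no more than that share. The groups share their arrays, so they are not independent. Mrpl12 stood at a log2 level of 11.37 on SPI 147, where the other SPI arrays lay between 10.47 and 10.62. Mrpl4 stood at 7.23 on SPE 148 against 8.15 to 8.27 on the other SPE arrays. Mrpl48 stood at 8.48 on SPE 148 against 8.96 to 9.02 on the others. Both arrays are among the 3 with the lowest mean signal. The part of signal strength in these 3 levels was not tested.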

How the results depend on the processing

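In SPI against WT, members called higher numbered 4 as reported, 8 both without background correction and with the deposited values, 2 with median scaling of detected probes, and 0 with mean signal as a covariate, without the 3 dimmest arrays and with scaling to the median of all probes. Members called lower numbered 9 as reported, 15 with the probes of a gene averaged, 23 with every probe as a feature, 1 with the signal covariate and 44 with all-probe scaling. Of all features, 24.5% were called as reported, 26.3% without background correction, 26.2% with the deposited values and 34.1% with median scaling of detected probes. The share was 25% with probes averaged and 26.1% with every probe. It was 5.38% with the signal covariate, 19.7% without the 3 dimmest arrays and 43% with all-probe scaling. In SPI against SPE, 1 member was higher as reported. It was 2 without background correction, with the deposited values and with detection at p under 0.01 on all 14 arrays, 3 with array weights, and 0 with either median scaling, no detection filter, no replicate block, a fixed replicate block for 4 animals, only the 2 groups compared, the signal covariate or without the 3 dimmest arrays. Members lower there numbered 7 as reported, 4 with no detection filter, 14 with the mean of probes, 17 with every probe, 3 with only the 2 groups, 12 with array weights, 2 without the 3 dimmest arrays, and 0 with the signal covariate or all-probe scaling. With no replicate block the lower count was 2, and with the fixed replicate block 0. Of all features, 20.5% were called in this comparison as reported, 7.03% with no detection filter, 21.9% with the mean of probes and 21.7% with every probe. The share was 12.6% with only the 2 groups, 30.3% with array weights and 12.7% without the 3 dimmest arrays. It was 11.4% with no replicate block, 3.81% with the fixed block, 8.35% with the signal covariate and 0% with all-probe scaling. In SPI against WT dropping the block gave 15 calls that included all 13 reported ones. The large-minus-small median was 0.134 with the mean of probes. The causes were not tested.

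Leaving out 1 array at a time gave 0 (without SPI 148) to 4 higher and 7 to 11 lower (the latter without SPE 148) in SPI against WT, 0 to 3 higher and 1 (without SPI 148) to 8 lower in SPI against SPE, and a large-minus-small median of -0.045 to 0.012. Of all features, 18.2% were called in SPI against WT without SPI 148 and 28.1% without SPE 148. In SPI against SPE the share was 10.2% without SPI 148. In SPE against WT limma called 0 members in every setting, with 0 to 7 at an unadjusted p under 0.05. Signs that turned were those of Mrpl51 in SPI against WT (0.014 with median scaling, 0.026 as a mean of probes) and, with all-probe scaling, of Mrpl52 (-0.46), Mrps10 (-0.58), Mrps34 (-0.71) and Mrps6 (-0.49) in SPI against WT, Mrps6 in SPI against SPE (-0.36) and Mrpl14 in SPE against WT (-0.0032). That scaling was chosen after seeing the data. Signal over background limits the dim members: 8 of 76 could not be measured, and 63 of the 68 measured were detected on all 14 arrays.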
